A study of Homo sapiens with 9 samples.

Results

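The NR4A family of orphan nuclear receptors, NR4A1, NR4A2 and NR4A3, was followed across 9 RNA-sequencing libraries of U87, a human glioblastoma line. Its members were the genes of the count table with these 3 names, 3 of 58735 genes. All 3 passed the filter on low counts, which kept 16874 genes. The family was chosen by the fold changes between the groups of these same libraries, so its levels and fold changes are given as a description and without p-values. Where a member is said to pass or miss the threshold of the fit across all genes, that too describes the choice and is no test of it. The libraries fall into 3 groups of 3, each from cells that stably overexpressed 1 construct. C269S cells carried mutant IDH1 (R132H) with a cysteine-to-serine change, IDH1mt cells carried the R132H mutant alone, and PCDH cells carried the vector. The R132H form of isocitrate dehydrogenase 1 is a glioma mutation, and the stated question was how attachment of palmitate by the mutant enzyme to itself bears on gene expression. All cells had the U87 background and grew in DMEM with 10% fetal bovine serum and antibiotics. No group overexpressed unmutated IDH1. The promoter of the construct, the number of independently selected lines and whether the libraries came from separate cultures are not stated in the sources at hand, so a line and its construct cannot be told apart, and p-values measure the spread between libraries, which may be technical.

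NR4A proteins are transcription factors without a known classical hormone, and their activity depends largely on how much of each protein is made. They are immediate early genes: calcium, cAMP and growth factor signals switch on their transcription within a short time, in part through the factor CREB, which binds cAMP response elements (CRE) in their promoters. They bind single DNA sites called NBRE as monomers and paired sites as dimers, and NR4A1 and NR4A2 can also pair with the retinoid X receptors. NR4A1 is known for roles in T cell selection and apoptosis, NR4A2 for the development of midbrain dopamine neurons in mice, and NR4A3 for its fusion to EWSR1 in a sarcoma.

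NR4A1 (ENSG00000123358) lies at chr12:52022832-52059507 on the plus strand of GRCh38, NR4A2 (ENSG00000153234) at chr2:156324432-156342348 on the minus strand, and NR4A3 (ENSG00000119508) at chr9:99821855-99866891 on the plus strand. The table's coordinates equal those of GENCODE release 29 for all 3. The family shares its DNA-binding domain, and the closeness of the coding sequences bears on whether reads can be assigned to 1 member. A stretch of 60 coding bases from the first zinc finger of that domain is shown, read 5′ to 3′ in the sense of each gene from the GENCODE transcripts, with capitals at the positions that are not the same in all members.
NR4A1, chr12:52055130-52055189, plus strand: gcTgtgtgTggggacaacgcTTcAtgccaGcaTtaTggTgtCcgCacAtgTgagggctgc
NR4A2, chr2:156329338-156329397, minus strand: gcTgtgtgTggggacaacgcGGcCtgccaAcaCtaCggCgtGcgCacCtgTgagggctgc
NR4A3, chr9:99828919-99828978, plus strand: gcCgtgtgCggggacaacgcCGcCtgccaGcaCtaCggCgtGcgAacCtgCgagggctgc
Of the 60 positions, 47 held the same base in all members and 13 did not. NR4A1 matched NR4A2 at 51 positions and NR4A3 matched NR4A2 at 54. Over the aligned coding sequences, identity was 69.1% between NR4A1 and NR4A2, 63.96% between NR4A1 and NR4A3, and 68.8% between NR4A2 and NR4A3. The longest run of bases that any pair shared exactly was 20, so the principal transcripts are distinct over longer stretches. A single annotated gene overlaps a member: AC025259.3, a long noncoding RNA on the minus strand, lies at chr12:52058459-52059503 within NR4A1 and held 0 to 2 counts per library. No annotated gene overlaps NR4A2 or NR4A3.

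RefSeq promoter windows (GRCh38.p14, 250 bases before to 50 after a start) were at hand for 2 of the 3 members, NR4A1 and NR4A3. They were searched on both strands for the CRE half-site TGACG, the full CRE TGACGTCA, which contains half-sites, and the NBRE AAAGGTCA. The NR4A3 window held 4 half-sites, beginning at 109, 91, 83 and 25 bases before the start, and no full CRE or NBRE. The 130 bases before its start are shown because CREB binds such sites, with the half-sites in capitals on either strand.
NR4A3, chr9:99821755-99821884, plus strand: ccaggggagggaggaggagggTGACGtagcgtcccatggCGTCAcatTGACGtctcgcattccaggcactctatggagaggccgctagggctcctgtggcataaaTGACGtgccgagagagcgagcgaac
Both windows of NR4A1, at chr12:52022582-52022881 and chr12:52037465-52037764, held none of the 3 motifs. GENCODE lists 19 starts for NR4A1, and sequence near its starts outside these windows was not searched. Among 35116 windows of all genes, 24.6% held at least 1 half-site and 0.313% held 4 or more, while 1.85% held a full CRE and 1.22% an NBRE. A match describes letters in a window, and no binding was measured.

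Library totals lay between 19108925 and 24803711 counts. Levels are CPM, read counts divided by the library's total after scaling by the trimmed mean of M values. A gene passed the threshold, or was called, where edgeR's quasi-likelihood test gave it an adjusted p under 0.05 over all genes tested. As a check of the labels, IDH1 was at 739 ± 30.3 CPM in C269S cells and 677 ± 16.5 CPM in IDH1mt cells, against 111 ± 7.97 CPM in PCDH cells (SD, n = 3 each). IDH1 was not called between C269S and IDH1mt cells (log2 fold change 0.13, 95% interval -0.01 to 0.26). It thus checks only PCDH cells against the others, and the labels C269S and IDH1mt rest on the column names. Of 9 glioma markers, 8 reached 1 CPM, with SOX2 at 0 to 0.133 CPM, and of the genes deleted in U87, CDKN2A had no count in any library and MTAP had 0 to 2. The summed T and B cell markers were at 0.737 to 1.61 CPM, with CD3E and MS4A1 at 0 and 1 of the 5 averaging 1 CPM or more. Summed endothelial markers were at 9.5 to 13.2 CPM, with 2 of 4 averaging 1 CPM or more. Summed neuron markers were at 21.5 to 28.2 CPM, with 2 of 5 averaging 1 CPM or more.

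NR4A2 was the member with the largest difference between groups. C269S libraries held 16.8, 16.9 and 19.2 CPM (330, 334 and 418 counts). IDH1mt libraries held 8.12, 6.09 and 7.02 CPM (193, 148 and 131 counts), and PCDH libraries 19.1, 23.99 and 19.3 CPM (389, 569 and 435 counts). Every IDH1mt library lay below every library of the other groups, while C269S and PCDH libraries overlapped, with the highest value in PCDH replicate 2. The mean was 7.08 ± 1.02 CPM in IDH1mt cells and 20.8 ± 2.76 CPM in PCDH cells (SD, n = 3 each), a log2 fold change of -1.56 with a standard error (SE) of 0.13, or 2.94-fold lower. Among all 16874 genes ordered by log2 fold change in that comparison, NR4A2 was number 59 from the lowest. Against IDH1mt cells, C269S cells averaged 17.7 ± 1.34 CPM (SD, n = 3), a log2 fold change of 1.32 (SE 0.13) or 2.50-fold higher, number 49 from the highest. In bulk RNA, fewer cells with the transcript and less transcript per cell cannot be told apart.

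NR4A3 followed the same order of groups with a smaller difference and fewer reads. C269S libraries held 8.37, 5.22 and 5.79 CPM (164, 103 and 126 counts). IDH1mt libraries held 3.998, 4.61 and 3.64 CPM (95, 112 and 68 counts), and PCDH libraries 6.05, 7.42 and 7.14 CPM (123, 176 and 161 counts). IDH1mt libraries were again below all others, but the gap was narrow, since C269S replicate 2 at 5.22 CPM lay next to IDH1mt replicate 2 at 4.61 CPM, and C269S replicate 1 was the highest of all. The smallest count, 68, carries a 95% Poisson interval of 52.8 to 86.2 counts, which covers counting error only. IDH1mt cells averaged 4.08 ± 0.489 CPM and PCDH cells 6.87 ± 0.726 CPM (SD, n = 3 each), a log2 fold change of -0.75 (SE 0.19). C269S cells averaged 6.46 ± 1.68 CPM (SD, n = 3), which was 0.65 higher than IDH1mt cells on the log2 scale (SE 0.19). That difference no longer passed the threshold without C269S replicate 1, when it was 0.43, or without IDH1mt replicate 1 (0.64), 2 (0.75) or 3 (0.58).

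NR4A1 varied least between groups. C269S libraries held 15.4, 13.3 and 14.1 CPM (302, 262 and 306 counts). IDH1mt libraries held 11.8, 11.7 and 9.22 CPM (281, 285 and 172 counts), and PCDH libraries 12.1, 17.1 and 12.3 CPM (246, 406 and 278 counts). The IDH1mt libraries were the lowest, yet PCDH replicates 1 and 3 lay just above IDH1mt replicates 1 and 2, and PCDH replicate 2 stood apart at the top. The log2 fold change of IDH1mt against PCDH cells was -0.34 (SE 0.14), with a 95% interval of -0.67 to -0.01, and it did not pass the threshold. Without PCDH replicate 2 it was -0.16, and without PCDH replicate 3 it was -0.42 and passed. C269S cells averaged 14.2 ± 1.08 CPM against 10.9 ± 1.48 CPM in IDH1mt cells (SD, n = 3 each), a log2 fold change of 0.38 (SE 0.14; 95% interval 0.04 to 0.71) that also did not pass.

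**Figure D1:**
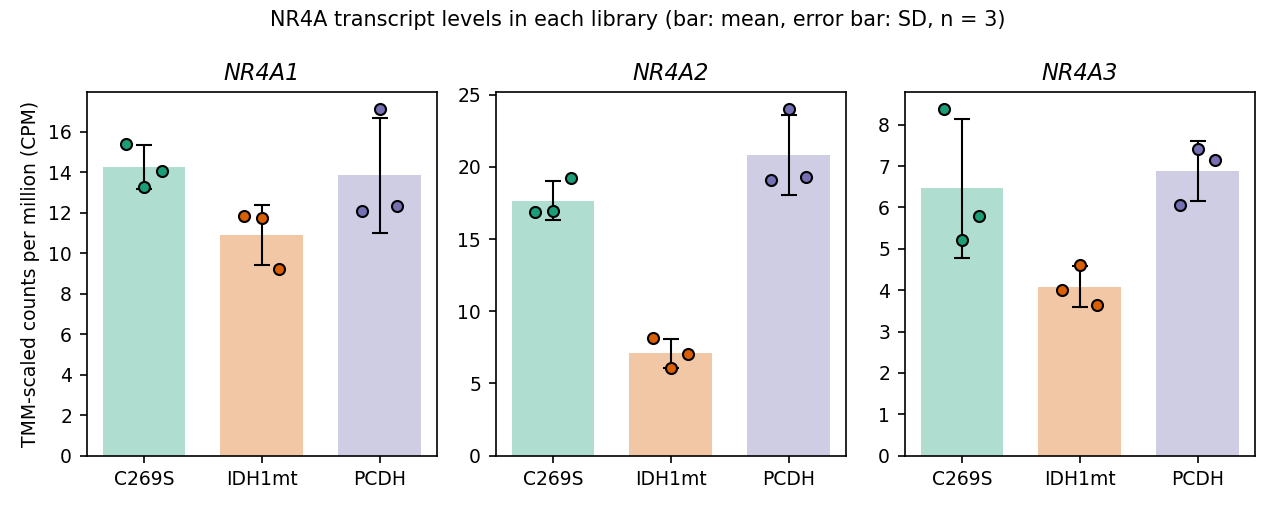
Levels of NR4A1, NR4A2 and NR4A3 in CPM, 1 panel per gene, with 3 libraries each of C269S, IDH1mt and PCDH cells as points and the mean ± SD as bars. The 3 IDH1mt libraries are the lowest in each panel, and the separation is widest for NR4A2, at 7.08 CPM in IDH1mt cells against 20.8 CPM in PCDH cells.

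For IDH1mt against PCDH cells, 2 of 3 members, NR4A2 and NR4A3, were called lower, where 6.90% of all genes were called lower and 7.18% higher. All 3 had IDH1mt libraries below PCDH libraries with no overlap, where 14.9% of all genes lay lower in this way and 14.3% higher. For C269S against IDH1mt cells, NR4A2 and NR4A3, 2 of 3, were called higher, where 2.29% of all genes were called higher and 2.61% lower. All 3 had C269S libraries above IDH1mt libraries, where 11.8% of all genes lay higher without overlap. For C269S against PCDH cells, 0 of 3 were called, where 1.42% of all genes were (0.883% higher and 0.533% lower); at an unadjusted p under 0.05 in edgeR, or with DESeq2 or limma, the count was also 0 of 3. The libraries of those groups overlapped for each member, where 7.62% of all genes lay higher and 7.57% lower without overlap. These contrasts chose the members, so nothing is read from the counts. IDH1mt libraries stand in both of the first comparisons, so the lower and the higher values are not independent.

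Set beside each other, C269S and PCDH cells differed by less than the intervals could resolve. The log2 fold change of C269S against PCDH cells was -0.24 for NR4A2 (SE 0.12; 95% interval -0.53 to 0.05), -0.09 for NR4A3 (SE 0.18; -0.53 to 0.35) and 0.04 for NR4A1 (SE 0.13; -0.29 to 0.37). The NR4A2 interval reaches down to -0.53, so a level lower by up to that size in C269S cells was not excluded, and equality was not shown. At 3 libraries per group, p = 0.1 is the smallest that exact permutation of a single value allows (two-sided).

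**Figure D2:**
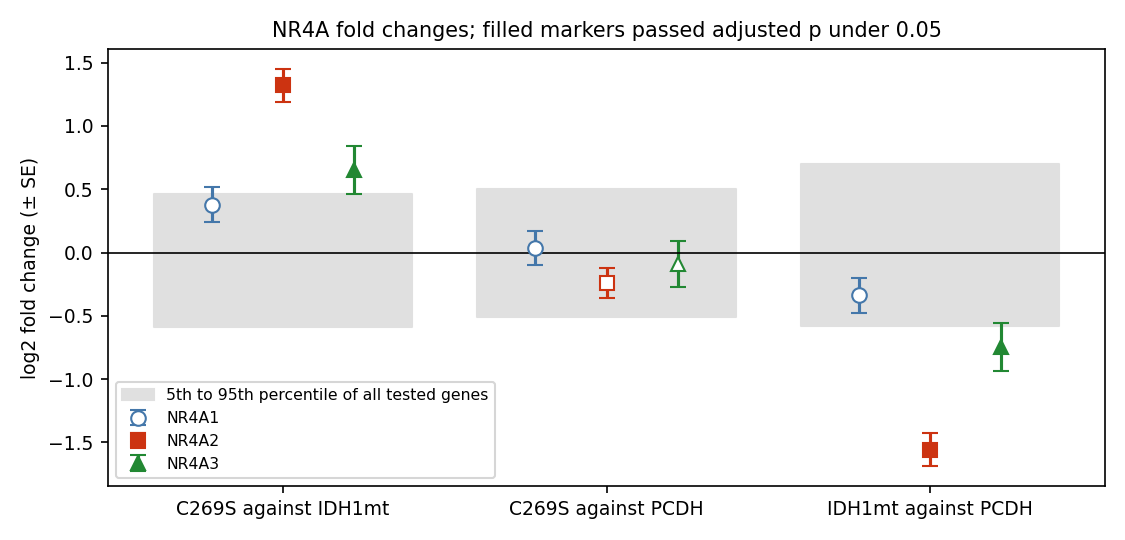
Log2 fold changes of the 3 members in each comparison, with bars of ± SE from the fit. NR4A2 lies at -1.56 for IDH1mt against PCDH, at 1.32 for C269S against IDH1mt and at -0.24 for C269S against PCDH. In C269S against PCDH the 95% intervals of all 3 members, which are not drawn, include 0. The drawn bar of NR4A2 there (SE 0.12) does not reach 0.

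The composition of the family was compared per length, as the authors' FPKM. The members summed to 7.63, 6.87 and 7.64 FPKM in C269S libraries, 4.28, 3.86 and 3.59 FPKM in IDH1mt libraries, and 7.35, 9.49 and 7.63 FPKM in PCDH libraries. The IDH1mt sums were the lowest without overlap. NR4A2 made up 59.99 ± 4.15% of the family FPKM in C269S cells, 45.4 ± 5.05% in IDH1mt cells and 63.8 ± 0.916% in PCDH cells (SD, n = 3 each). NR4A1 made up 26.3 ± 1.21%, 38.1 ± 3.27% and 22.9 ± 1.38% in C269S, IDH1mt and PCDH cells, and NR4A3 13.7 ± 3.06%, 16.5 ± 2.11% and 13.3 ± 1.27%. The share of NR4A2 was thus lowest where its level was, and NR4A3 stayed the lowest member in all 9 libraries.

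The order of NR4A1 and NR4A2 in IDH1mt cells depended on the gene length used. NR4A1 has 22 annotated transcripts with 19 starts, and the table gives it 7295 bases, against 3511 bases for its principal coding transcript, while NR4A2 has 3967 bases in the table and 3472 in its transcript. With the table's lengths, the FPKM of NR4A2 over that of NR4A1 was 2.01, 2.34 and 2.51 in C269S libraries, 1.26, 0.955 and 1.40 in IDH1mt libraries, and 2.91, 2.58 and 2.88 in PCDH libraries. With the transcript lengths, chosen after seeing the data, the ratios were 1.10, 1.29 and 1.38 in C269S libraries, 0.695, 0.525 and 0.770 in IDH1mt libraries, and 1.60, 1.42 and 1.58 in PCDH libraries. By this length, NR4A1 was the top member in every IDH1mt library and NR4A2 in the other 6. The ratio was lower in IDH1mt cells than in both other groups, without overlap, under either length.

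**Figure D3:**
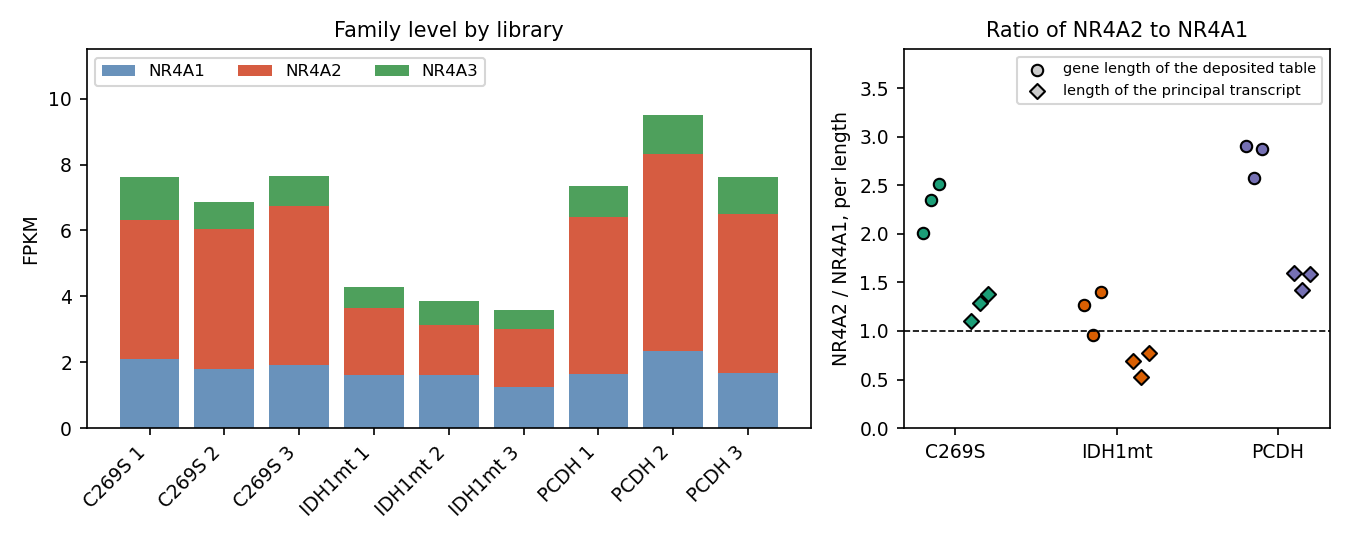
Left, FPKM of the 3 members stacked in each library of C269S, IDH1mt and PCDH cells; right, the ratio of NR4A2 to NR4A1 per length in each library, with the table's gene length and with the principal transcript's length. The IDH1mt libraries have the lowest sums, 3.59 to 4.28 FPKM, and the lowest ratios under both lengths.

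Some genes tracked the members across libraries. Of the protein-coding genes, 11608 averaged 1 log2 CPM or more, and the closest of them to NR4A2 by Pearson's r over the 9 libraries were MAP2K3, a kinase that activates p38 (r = 0.987), RGS3, a regulator of G protein signalling (0.987), the chromatin protein HMGB2 (0.982), the cell cycle inhibitor CDKN1A (0.982) and the prostaglandin E synthase PTGES (0.981). CDKN1A, for example, averaged 375 CPM in C269S cells, 265 CPM in IDH1mt cells and 380 CPM in PCDH cells. For NR4A1 they were NOB1, which trims ribosomal RNA (0.981), the histidyl-tRNA synthetase HARS (0.951), the RNA polymerase III subunits POLR3E (0.937) and POLR3C (0.931), and TMEM136 (0.908). For NR4A3 they were SRSF8 (0.962), the transcription factor EBF1 (0.957), the Golgi complex subunit COG8 (0.954), POLR3E (0.940) and ZNF512 (0.940). An r above 0.9 was reached by 208 genes for NR4A2, 6 for NR4A1 and 39 for NR4A3. These are descriptions over 9 libraries that share 3 group means.

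Between the members, r was 0.734 for NR4A1 with NR4A2, 0.807 for NR4A1 with NR4A3 and 0.824 for NR4A2 with NR4A3 over 9 libraries. After each group's mean was removed, these were 0.479, 0.615 and -0.112. The last pair was thus related mainly through the group means, although PCDH replicate 2 was the highest PCDH library for both.

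The signalling genes upstream of the family moved in both directions. This list and the lists below were chosen with earlier results of these data known, so nothing is read from their shares of called genes. Of 50 genes of cAMP, calcium and CREB signalling, 45 were tested, and in IDH1mt against PCDH cells 5 were called higher and 4 lower (20.0%, where 14.1% of all genes were called), with a median log2 fold change of 0.03 against -0.01 over all genes. ADCY8, a calcium-stimulated adenylyl cyclase that makes cAMP, was at 76.0 ± 4.04 CPM in C269S cells, 56.9 ± 2.85 CPM in IDH1mt cells and 116 ± 4.35 CPM in PCDH cells (SD, n = 3 each). It fell in IDH1mt against PCDH cells (log2 fold change -1.03, SE 0.07; edgeR quasi-likelihood adjusted p = 7.59e-13) and also in C269S against PCDH cells (-0.61, SE 0.07; adjusted p = 5.55e-07). ADCY8 was called higher in C269S than IDH1mt cells, at 0.37 to 0.45 with 1 library left out. SRF, the serum response factor of immediate early genes, was at 28.4 CPM in C269S, 20.6 CPM in IDH1mt and 27.1 CPM in PCDH cells, lower in IDH1mt than PCDH cells (-0.40, SE 0.09; edgeR adjusted p = 0.00212) and higher in C269S than IDH1mt cells (0.47, SE 0.09; adjusted p = 0.000967). In IDH1mt against PCDH cells, SIK3, a kinase that holds CREB coactivators in the cytoplasm, was higher by 0.51 (SE 0.09; edgeR adjusted p = 0.00021), and PDE4B, which breaks down cAMP, was lower by a log2 change of -0.38 (SE 0.08; adjusted p = 0.00155). In C269S against PCDH cells 1 gene of the list, ADCY8, was called (2.22%, where 1.42% of all genes were), and in C269S against IDH1mt cells 4 were called higher and 1 lower (11.1%, where 4.90% of all genes were called). Among those, CAMK2D, a calcium-dependent kinase, was higher by 0.34 (SE 0.09; edgeR adjusted p = 0.0197), a call lost without any 1 of IDH1mt replicates 1, 2 and 3 and C269S replicates 1 and 2 (edgeR adjusted p 0.0698 to 0.103). PDE4B was higher by 0.31 (SE 0.08; edgeR adjusted p = 0.0268), a call lost without IDH1mt replicate 2 or 3 or C269S replicate 1 or 2 (0.086 to 0.162).

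Genes that are induced together with the family split in direction. Of 27 immediate early and CREB-responsive genes, 22 were tested. In IDH1mt against PCDH cells 6 were called higher and 6 lower (54.5%, where 14.1% of all genes were called), with a median log2 fold change of -0.01. In C269S against IDH1mt cells 6 were called higher and 3 lower (40.9%, where 4.90% of all genes were; median 0.19), and in C269S against PCDH cells 3 higher and 1 lower (18.2%, where 1.42% of all genes were; median 0.17). The medians over all genes were -0.01, 0.00 and -0.01 in the same comparisons.

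PER1, a CREB-responsive clock gene, had the pattern of NR4A2, with 107 ± 9.64 CPM in C269S cells, 72.5 ± 6.72 CPM in IDH1mt cells and 104 ± 8.12 CPM in PCDH cells (SD, n = 3 each). It was lower in IDH1mt than PCDH cells (log2 fold change -0.52, SE 0.08; edgeR adjusted p = 1.17e-05) and higher in C269S than IDH1mt cells (0.57, SE 0.08; adjusted p = 5.7e-06). BDNF, a neurotrophin gene with a CREB-driven promoter, was at 51.9 CPM in C269S, 39.8 CPM in IDH1mt and 63.3 CPM in PCDH cells, and it was lower in IDH1mt than PCDH cells (-0.67, SE 0.08; edgeR adjusted p = 9.35e-08). BDNF was called higher in C269S than IDH1mt cells, at 0.36 to 0.41 with 1 library left out. EGR2, an early growth response factor, ran the other way, with 44.1 ± 3.55 CPM in C269S cells, 84.1 ± 6.26 CPM in IDH1mt cells and 37.3 ± 1.94 CPM in PCDH cells. Its log2 fold change was 1.17 for IDH1mt against PCDH cells (SE 0.08; edgeR adjusted p = 1.15e-12) and -0.93 for C269S against IDH1mt cells (SE 0.08; adjusted p = 5.26e-10). DUSP1, a phosphatase that switches off MAP kinases, likewise was higher in IDH1mt than PCDH cells (0.49, SE 0.06; edgeR adjusted p = 9.75e-08) and lower in C269S than IDH1mt cells (-0.42, SE 0.06; adjusted p = 3.26e-06).

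EGR1 was at 44.3 ± 0.561 CPM in C269S cells, 30.1 ± 3.77 CPM in IDH1mt cells and 36.0 ± 0.246 CPM in PCDH cells (SD, n = 3 each). It was higher in C269S than IDH1mt cells (log2 fold change 0.56, SE 0.09; edgeR adjusted p = 4.92e-05), and its call in IDH1mt against PCDH cells (-0.26, SE 0.09; adjusted p = 0.0421) was lost when C269S replicate 1 or 2, IDH1mt replicate 1 or 3, or PCDH replicate 1 or 2 was left out (0.0538 to 0.274) and with 6 libraries alone (0.0712). FOS, at 5.18 CPM in C269S, 2.96 CPM in IDH1mt and 3.89 CPM in PCDH cells, was higher in C269S than IDH1mt cells (0.80, SE 0.21; edgeR adjusted p = 0.0221), a call lost without IDH1mt replicate 2 or 3 or any C269S library (0.0598 to 0.127). FOSB was not called in any comparison, nor was CREM, the CRE-binding modulator, at 21.0 CPM in C269S, 21.8 CPM in IDH1mt and 20.4 CPM in PCDH cells. PTGS2, the inducible cyclooxygenase, was higher in C269S than PCDH cells (0.43, SE 0.06; edgeR adjusted p = 0.00011), with 648 ± 62.7 CPM in C269S cells against 482 ± 37.2 CPM in PCDH cells (SD, n = 3 each). In that comparison KLF2 (0.46; edgeR adjusted p = 0.0102) was called, except without PCDH replicate 1 or C269S replicate 1 or 3 (0.052 to 0.0717). PPARGC1A (0.56; edgeR adjusted p = 0.0405) lost its call when C269S replicate 1 or 2, IDH1mt replicate 1 or 3, or PCDH replicate 1 or 2 was left out (0.0558 to 0.299). BDNF (-0.29, edgeR adjusted p = 0.0434) kept its call only in the fit without PCDH replicate 1, with an adjusted p of 0.057 to 0.139 in the other 8. PTGS2 and KLF2 were also called higher in IDH1mt than PCDH cells. With 1 library left out, those calls held in all 9 fits, at 0.35 to 0.46 for PTGS2 and 0.46 to 0.58 for KLF2. Neither was called in C269S against IDH1mt cells.

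Of 30 dimer partners and coregulators, 29 were tested. In IDH1mt against PCDH cells 2 were called higher (6.90%, where 14.1% of all genes were called in either direction), and without PCDH replicate 3 the count was 6. In C269S against PCDH cells 0 were called, where 1.42% of all genes were, and 3 without PCDH replicate 3. In C269S against IDH1mt cells 0 were called, where 4.90% of all genes were. In each of the comparisons with C269S cells, 3 had an unadjusted p under 0.05 in edgeR, and DESeq2 and limma called 0. The 2 called were HIF1A, a hypoxia factor reported to be stabilised by NR4A1 (0.33, SE 0.06; edgeR adjusted p = 0.000306), and the deacetylase HDAC1 (0.30, SE 0.07; adjusted p = 0.00252). The dimer partner RXRA was at 32.8 CPM in C269S, 34.0 CPM in IDH1mt and 35.1 CPM in PCDH cells. RXRB was at 33.1 CPM in C269S, 34.9 CPM in IDH1mt and 37.6 CPM in PCDH cells, and RXRG had no count in any library. Neither RXRA nor RXRB was called.

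Genes reported elsewhere as targets of NR4A receptors also split. Of 44, 26 were tested, and the rest had few counts, with TH, the dopamine-synthesis enzyme, at 0 in all libraries. In IDH1mt against PCDH cells 5 were called higher and 8 lower (13 of 26, where 14.1% of all genes were called; median log2 fold change -0.01), in C269S against IDH1mt cells 6 higher and 3 lower (34.6%, where 4.90% of all genes were; median -0.03), and in C269S against PCDH cells 2 lower (7.69%, where 1.42% of all genes were; median -0.04). CCND1, the cyclin of early G1, was at 557 ± 16.2 CPM in C269S cells, 401 ± 23.7 CPM in IDH1mt cells and 595 ± 19.4 CPM in PCDH cells (SD, n = 3 each). It was lower in IDH1mt than PCDH cells (-0.57, SE 0.05; edgeR adjusted p = 2.3e-09) and higher in C269S than IDH1mt cells (0.48, SE 0.05; adjusted p = 1.82e-07). BIRC3, an inhibitor of apoptosis, had the same directions (-0.68, SE 0.08, edgeR adjusted p = 2.46e-07, and 0.49, SE 0.08, adjusted p = 0.000139). SPP1, the secreted matrix protein osteopontin, was lower in IDH1mt than PCDH cells (-0.71, SE 0.06; edgeR adjusted p = 1.12e-09) and lower in C269S than PCDH cells (-0.41, SE 0.06; adjusted p = 0.000192). SPP1 was also called higher in C269S than IDH1mt cells, at 0.26 to 0.34 with 1 library left out. LOX, which crosslinks collagen, was also lower in C269S than PCDH cells (-0.39, SE 0.06, edgeR adjusted p = 9.22e-05). LOX was called lower in IDH1mt than PCDH cells too, at -0.41 to -0.28 with 1 library left out, and was not called in C269S against IDH1mt cells. The cell cycle inhibitor CDKN1B was lower in C269S than IDH1mt cells (-0.32, SE 0.07; edgeR adjusted p = 0.00194). CDKN1B was 1 of the 5 targets called higher in IDH1mt than PCDH cells, at 0.25 to 0.30 with 1 library left out.

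Of 45 other nuclear receptors, which include the retinoid X receptors, 35 were tested. In IDH1mt against PCDH cells 1 was called higher and 3 lower (11.4%, near the 14.1% of all genes called; median log2 fold change -0.06), in C269S against IDH1mt cells 1 higher and 2 lower (8.57%, where 4.90% of all genes were; median -0.04), and in C269S against PCDH cells 0, where 1.42% of all genes were (median -0.02). In that comparison 3 had an unadjusted p under 0.05 in edgeR and DESeq2 and limma called 0. NR1D1, the clock repressor REV-ERB alpha, was at 209 ± 11.2 CPM in C269S cells, 131 ± 3.82 CPM in IDH1mt cells and 203 ± 10.8 CPM in PCDH cells (SD, n = 3 each). It was lower in IDH1mt than PCDH cells (-0.63, SE 0.06; edgeR adjusted p = 3.16e-09) and higher in C269S than IDH1mt cells (0.67, SE 0.06; adjusted p = 1.84e-09). NR3C1, the glucocorticoid receptor, was higher in IDH1mt than PCDH cells (0.35, SE 0.06; edgeR adjusted p = 0.00025), and NR0B1, an orphan receptor without a DNA-binding domain, was lower (-0.72, SE 0.17; adjusted p = 0.003). RARG was lower in IDH1mt than PCDH cells (-0.20; edgeR adjusted p = 0.0389), a call lost without C269S replicate 1, any IDH1mt library, or PCDH replicate 1 or 2 (0.0507 to 0.153). In C269S against IDH1mt cells, NR3C1 (-0.25; edgeR adjusted p = 0.0165) lost its call without IDH1mt replicate 1 or 3 or C269S replicate 3 (0.0941 to 0.112), and RARA (-0.26; adjusted p = 0.0452) without any IDH1mt library or C269S replicate 1 or 2 (0.113 to 0.219).

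**Figure D4:**
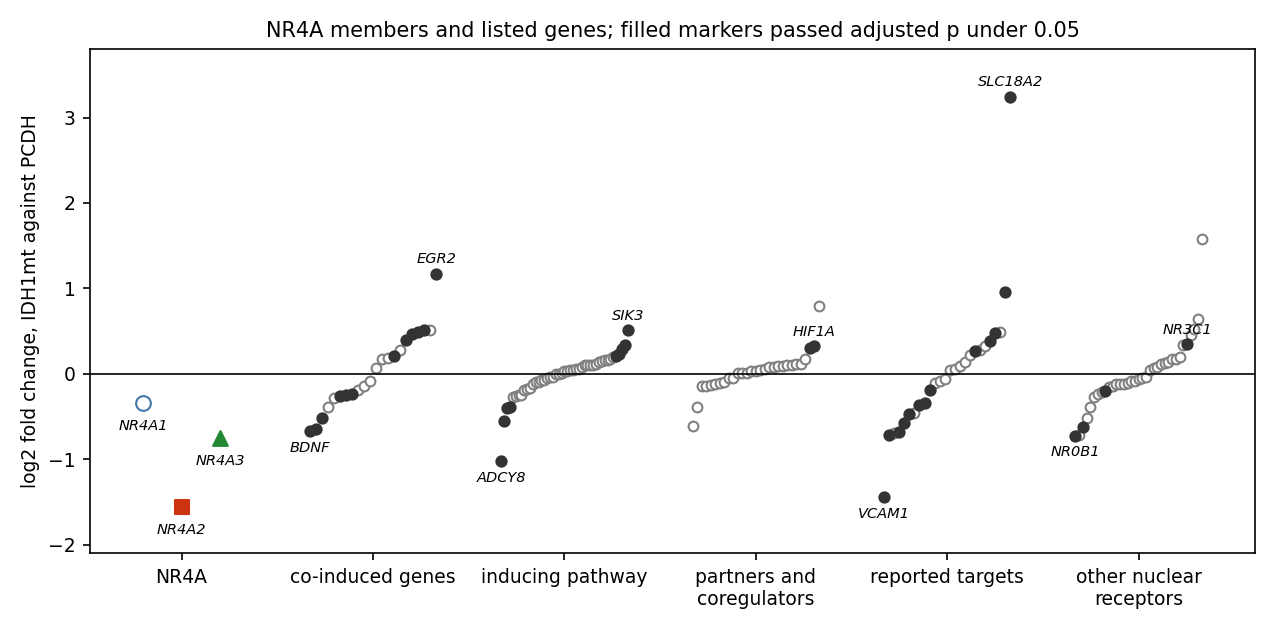
Log2 fold changes of IDH1mt against PCDH cells for the NR4A members and for the tested genes of 5 lists, each list in order of its fold changes; filled markers were called at an adjusted p under 0.05. NR4A2 at -1.56 lies below every listed gene, and each list but the partners has called genes on both sides of 0; the fitted value of SLC18A2 rests on 1 or 2 counts per PCDH library and has no size that can be read.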

How the data were processed

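Total RNA of U87 cells was sequenced in 9 libraries. The authors deposited whole-number read counts per gene and a table of FPKM, which they scaled by gene length and library total. The tools listed in the submitters' processing notes are HISAT2 (2.0.5) and featureCounts (1.5.0-p3), and the builds are GRCh38 and hg38. How RNA was selected, which kit was used and whether counting used strand is not given in the sources used here, so reads of antisense genes cannot be told apart. By their names, the column CS holds C269S, mt holds IDH1mt and Control holds PCDH.

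Counts were filtered with filterByExpr by group, scaled with TMM, the trimmed mean of M values (factors 0.978 to 1.02) and tested with edgeR's robust quasi-likelihood F test (edgeR 4.0.16, R 4.3.3). All 9 libraries entered 1 fit with 1 mean per group and no covariate, and p-values were adjusted by Benjamini and Hochberg over 16874 genes. The SE came from the test, as the size of the log2 fold change over the square root of F, and 95% intervals used 6 residual degrees of freedom. The steps were tested on simulated counts. Replicate libraries of each group differed by more than sampling noise (chi-square per degree of freedom 3.63 to 10.7). The highest values were those of PCDH replicate 3 with PCDH replicate 1 (9.86) and with PCDH replicate 2 (10.7). All other pairs lay at 3.63 to 6.13. The prior count for log2 CPM in correlations was 2. Members and lists were chosen with earlier results of these data known. The text names the members, IDH1, up to 4 called genes of a list and comparison with the lowest adjusted p, the 5 genes most like each member, the retinoid X receptors, FOS, FOSB, EGR1, CREM and overlapping genes. A gene that this rule names is not reported here. Alternatives used DESeq2 1.42.0, limma 3.58.1 on log2(FPKM + 1) and log2(FPKM + 0.1), other filters and scaling, a replicate block, 6 libraries alone and each library left out. GENCODE release 29 and RefSeq supplied gene models and promoters.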

Additional observations from a re-analysis of the deposited data

How the results depend on the processing

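NR4A2, as a description, kept its direction and stayed past the threshold in IDH1mt against PCDH and in C269S against IDH1mt cells in every alternative run. With 1 library left out it lay between -1.67 and -1.44 in the first and between 1.22 and 1.44 in the second. In the other alternatives it lay between -1.60 and -1.16 in the first and between 0.97 and 1.35 in the second. NR4A3 in IDH1mt against PCDH cells lost its call on log2(FPKM + 1) with limma (-0.34) and on log2(FPKM + 0.1) (-0.66). In C269S against IDH1mt cells it lost its call with the replicate block (0.65), on log2(FPKM + 1) (0.29) and on log2(FPKM + 0.1) (0.57), and it lay between 0.43 and 0.78 with 1 library left out. NR4A1 in IDH1mt against PCDH cells lay between -0.43 and -0.16 with 1 library left out. In C269S against PCDH cells, where neither was called, NR4A1 lay between -0.05 and 0.22 and turned below 0 without PCDH replicate 1 (-0.049), PCDH replicate 3 (-0.04) or C269S replicate 1 (-0.02), and NR4A3 lay between -0.32 and 0.04 and turned above 0 without C269S replicate 2 (0.038).

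Genes called numbered 1582 on log2(FPKM + 0.1) against 2375 for IDH1mt against PCDH cells. For C269S against PCDH cells they numbered 359 with DESeq2, 85 and 87 on log2(FPKM + 1) and log2(FPKM + 0.1), and 145 with 6 libraries alone, against 239, with 103 (without C269S replicate 1) to 903 (without PCDH replicate 3) when 1 library was left out. For C269S against IDH1mt cells they numbered 443 and 445 on the FPKM scales against 827, with 450 (without IDH1mt replicate 1) to 1244 (without PCDH replicate 3). With library size alone, the share of calls that were higher was 35.2% instead of 51.0% for IDH1mt against PCDH, 60.1% instead of 46.8% for C269S against IDH1mt, and 52.9% instead of 62.3% for C269S against PCDH cells.

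List counts in C269S against PCDH cells also moved. Co-induced genes called were 2 with the replicate block, 1 and 1 on the FPKM scales and 2 with 6 libraries alone, and 1 partner and 1 other nuclear receptor were called with no filter. With 1 library left out, the ranges were 1 to 6 for co-induced genes, 1 to 4 for inducing genes, 0 to 3 for partners, 2 to 4 for targets and 0 to 3 for nuclear receptors, each highest without PCDH replicate 3. In C269S against IDH1mt cells, 2 and 2 inducing genes and 1 and 1 nuclear receptors were called on the FPKM scales and 5 targets on log2(FPKM + 1), and with 1 library left out the ranges were 2 to 5 and 1 to 4. In IDH1mt against PCDH cells the ranges were 4 to 9 for inducing genes, lowest without IDH1mt replicate 3, and 2 to 6 for partners, highest without PCDH replicate 3. The cause of these changes was not tested. Among the named list genes, calls lost on both FPKM scales were BDNF, KLF2 and PPARGC1A in C269S against PCDH cells, CAMK2D, FOS, NR3C1, PDE4B and RARA in C269S against IDH1mt cells, and EGR1 and RARG in IDH1mt against PCDH cells. With 6 libraries alone BDNF, EGR1, PPARGC1A and RARG lost theirs, with library size alone PPARGC1A and RARA, and with no filter RARA and RARG.

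Replicate numbers did not pair the libraries: deviations from group means correlated between -0.09 and 0.06 for equal numbers and between -0.04 and 0.07 for unequal ones, and no block was added to the fit. With the replicate block, EGR1 (-0.26, edgeR adjusted p = 0.0623), PDE4B (0.31, 0.0503), BDNF, PPARGC1A, RARA and RARG also lost the calls named above. NR4A3 had as few as 68 counts in a library, which limits its precision.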

Other observations

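Several other reported targets, outside the rule for named genes and chosen after their values were seen, had low counts. SLC18A2, the vesicular transporter that loads dopamine into vesicles, had 15, 5 and 7 counts in C269S libraries, 15, 16 and 19 counts in IDH1mt libraries, and 2, 2 and 1 counts in PCDH libraries. IDH1mt libraries lay above PCDH libraries, opposite in direction to NR4A2, and no fold is given at these counts. VCAM1, a cell adhesion molecule, averaged 2.78 ± 0.777 CPM in C269S cells, 1.01 ± 0.240 CPM in IDH1mt cells and 2.72 ± 0.538 CPM in PCDH cells (SD, n = 3 each). Its log2 fold change was -1.44 for IDH1mt against PCDH cells (SE 0.31; edgeR quasi-likelihood adjusted p = 0.00118) and 1.47 for C269S against IDH1mt cells (SE 0.31; adjusted p = 0.00252). On log2(FPKM + 1) with limma, the C269S against IDH1mt value was 0.32 and was not called (adjusted p = 0.0613).

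ARC, an immediate early gene of synapses, was outside the same rule and averaged 22.6 ± 0.858 CPM in C269S cells, 15.2 ± 2.19 CPM in IDH1mt cells and 23.7 ± 1.66 CPM in PCDH cells (SD, n = 3 each). It was lower in IDH1mt than PCDH cells (log2 fold change -0.65, SE 0.11; edgeR adjusted p = 6.18e-05) and higher in C269S than IDH1mt cells (0.58, SE 0.11; adjusted p = 0.000748). Both calls held in all 9 fits that left out 1 library. CSRNP1, another co-induced gene outside the rule, ran the other way. It was called higher in IDH1mt than PCDH cells, in all 9 such fits (0.42 to 0.55). In C269S against IDH1mt cells it was called lower, in 6 of 9 such fits (-0.41 to -0.31).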
